A study of Mus musculus with 12 samples.

Results

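Clec4d and Clec4e are neighbouring mouse genes for activating C-type lectin receptors, and their reads were estimated to lie in 2 of the 57010 rows of the deposited count tables. The rows were chosen by identifier. Row ENSMUSG00000030142 carries the label Clec4e and was estimated to hold reads of Clec4d, and row ENSMUSG00000091260 carries the label Vmn2r19, a vomeronasal receptor gene, and was estimated to hold reads of Clec4e. The choice was made with the higher values of both rows in LPS_EV known, so the values of LPS_EV are given as a description, with no test. The names of the receptors are used below for the estimated gene, and the label is given with each row.

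The cells were BV2, an immortalised mouse microglial line, and every library came from BV2 cells that received extracellular vesicles shed by other BV2 cells for 24 h. LPS_EV cells received vesicles of donors treated with lipopolysaccharide, a bacterial cell wall component. TGFB_EV cells received those of donors treated with TGF-β, and IL10_EV cells those of donors treated with IL-10. control_EV cells received vesicles of untreated donors. Each group had 3 libraries and no group without vesicles is part of these tables. The labels do not say that replicates were separate cultures, so a p-value reflects only variation among these libraries, technical variation included.

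Clec4d encodes the receptor MCL and Clec4e the receptor Mincle. Both lack a signalling tail of their own and pair with the FcRγ chain, which recruits the kinase Syk and, through it, the Card9, Bcl10 and Malt1 adaptor complex that leads to NF-κB. They bind mycobacterial glycolipids, and Mincle also binds the protein SAP130 released by dying cells. In macrophages Clec4e is known as a gene induced by microbial stimuli.

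Row labels and levels often disagreed in these tables, so the gene behind each row was estimated from positions. The exons of all rows were moved along their chromosome until rows with counts fell on exons of protein-coding genes, in GENCODE M21 on GRCm38, without use of the groups. Both rows lie in a stretch of 2485 rows on chromosome 6 for which the best displacement was -22.9 kb. Its score was 177.5, and it was -35 with no displacement. These 2 scores are not alike, since a row that met its own exons earned nothing for coding exons. With no displacement only a further term for widely expressed genes was left, so the gap does not weigh the labels. The score at -22.9 kb was 142 above that of the best displacement more than 100 steps of 100 bp away. Nearer displacements were not part of that margin. Moved in this way, the row labelled Clec4e shared 93 bases with Clec4d, all of them the coding exon 2 of 6 at chr6:123265319-123265411 on the + strand, and none with Clec4e itself. The row labelled Vmn2r19 shared 414 bases with Clec4e, of which 116 were the coding exon 5 of 6 at chr6:123285469-123285584 on the - strand and 298 lay in exons of non-coding transcripts only. The 2 exons that tie the rows to the receptors are given in transcript direction from the GENCODE transcripts, with the exon in capitals and 20 bases of the neighbouring exons in lower case.

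Clec4d exon 2: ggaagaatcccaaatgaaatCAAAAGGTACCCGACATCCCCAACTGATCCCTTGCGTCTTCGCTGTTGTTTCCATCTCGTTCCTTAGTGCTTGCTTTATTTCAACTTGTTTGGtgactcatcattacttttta
Clec4e exon 5: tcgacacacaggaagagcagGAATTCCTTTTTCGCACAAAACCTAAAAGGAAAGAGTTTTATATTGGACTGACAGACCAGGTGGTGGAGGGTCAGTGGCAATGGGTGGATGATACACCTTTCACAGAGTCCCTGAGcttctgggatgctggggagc

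The overlaps are short beside the rows, which span 4965 and 2565 exon bases. Displacements within 200 bp of the best left 93 to 201 bases of Clec4d in the row labelled Clec4e and 298 to 414 bases of Clec4e in the row labelled Vmn2r19, while up to 124 bases of that row then fell on Vmn2r19. Within 1000 bp, 19 of 21 displacements kept an overlap for each row. Scored on the rows around them alone, with both rows left out, a displacement of -22.9 kb was not singled out by 78 rows, since 8743 of the 40001 displacements tried scored higher (21.9%). With 158 rows it was exceeded by 17 displacements (0.0425%) and with 318 rows by 3 (0.0075%). The 78 rows scored -1 at -22.9 kb and 0 with no displacement, where rows on their own exons earned nothing for coding exons. In the same order the scores were 22.5 and 5 for the 158 rows and 38.5 and 2.5 for the 318 rows. The best displacement of the 318 rows was -29.4 kb, at which the row labelled Clec4e shared no base with Clec4d and the row labelled Vmn2r19 shared 716 bases with Clec4e. The match to Clec4d thus rests on fewer bases than the match to Clec4e and was lost at that displacement.

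**Figure D1:**
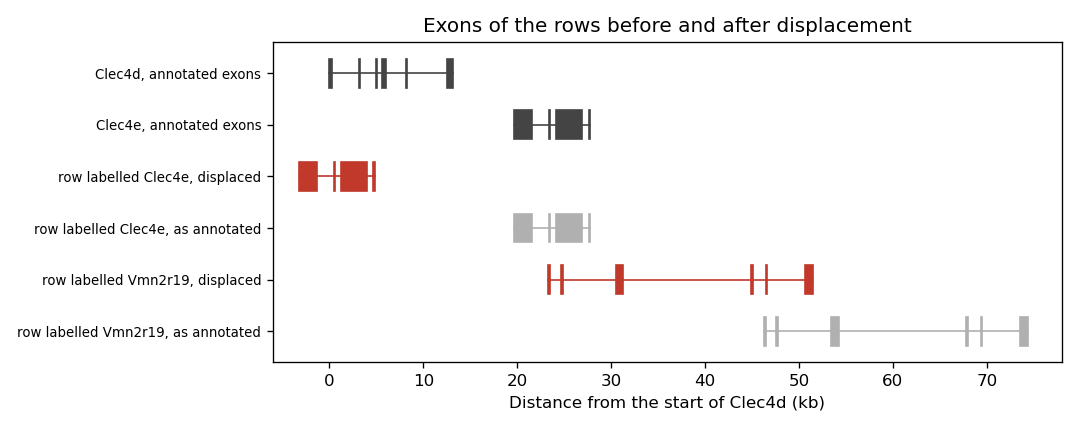
Exons of Clec4d and Clec4e (dark), of both rows after displacement (red) and as annotated (light grey), by distance in kb from the annotated start of Clec4d; boxes are merged exons and lines span the row. After displacement the row labelled Clec4e crosses exons of Clec4d and the first exons of the row labelled Vmn2r19 fall within Clec4e.

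The rows around them held few counts. The row labelled Clec4d held 46 counts over the 12 libraries and met no protein-coding exon, and the row labelled Clec4n, the gene of Dectin-2, held 0. On the other side the row labelled Vmn2r20 held 4 counts. The row labelled Clec4e held 779 counts and the row labelled Vmn2r19 held 954, so these were the only 2 of the 23 rows listed around them with more than 352 counts, the number in the row labelled Clec4a4, whose exons met 82 bases of Clec4a3.

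Library totals lay between 10497757 and 13647007 counts, and 3 counts, the limit that a count of 0 allows, correspond to at most 0.286 CPM. CPM relates a row's count to its library's total, which TMM, edgeR's normalisation, adjusts for library composition. Rows matched to 7 of 12 microglia and macrophage markers summed to between 3218 and 3745 CPM in every library, and 6 of them reached 5 CPM. Most of the sum lay in the rows matched to Fcer1g (1951 CPM on average) and Tyrobp (779.7 CPM), which shared the most bases with another gene. When the listed gene had to share the most bases, these rows dropped out and 4 tested rows were left. Rows matched to markers of neurons, astrocytes, oligodendrocytes, endothelial cells and fibroblasts summed to under 1 CPM, and the T cell list reached 14.85 to 24.32 CPM through 1 row while the row matched to Cd3e was at 0. Within groups, the chi-square statistic per degree of freedom between replicates was 3.58 to 5.92 apart from TGFB_EV replicate 3 and IL10_EV replicate 2. TGFB_EV replicate 3 differed from the other TGFB_EV libraries at 10.01 and 16.94, and IL10_EV replicate 2 from the other IL10_EV libraries at 18.66 and 24.8. The IL10_EV means, fitted differences, list medians and list rows called in LPS_EV are given with and without IL10_EV replicate 2. In bulk RNA, fewer expressing cells and less RNA per cell cannot be told apart.

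The row labelled Clec4e, estimated Clec4d, had 50, 121 and 98 counts in the LPS_EV libraries, which is 4.57, 10.51 and 8.77 CPM. In TGFB_EV it had 43, 21 and 48 counts, or 3.74, 1.81 and 3.84 CPM. In IL10_EV it had 54, 169 and 68 counts, or 4.02, 13.07 and 4.97 CPM, and in control_EV 31, 41 and 35 counts, or 2.96, 3.51 and 2.89 CPM. All LPS_EV and all IL10_EV libraries lay above all control_EV libraries, whereas TGFB_EV and control_EV overlapped. The means were 7.95 ± 3.05 CPM in LPS_EV, 3.13 ± 1.14 CPM in TGFB_EV, 7.35 ± 4.97 CPM in IL10_EV and 3.12 ± 0.34 CPM in control_EV (SD, n = 3 each). The counts of the control_EV libraries had an SD of 5.03, below the 5.97 that counting alone gives at their mean, while in IL10_EV the SD was 62.75 counts against 9.85 from counting, with replicate 2 high.

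The row labelled Vmn2r19, estimated Clec4e, had 118, 127 and 77 counts in the LPS_EV libraries, which is 10.79, 11.03 and 6.89 CPM. In TGFB_EV it had 52, 40 and 73 counts, or 4.52, 3.44 and 5.84 CPM. In IL10_EV it had 91, 128 and 77 counts, or 6.77, 9.90 and 5.62 CPM, and in control_EV 43, 73 and 55 counts, or 4.10, 6.24 and 4.54 CPM. All LPS_EV libraries lay above all control_EV libraries, while the TGFB_EV and the IL10_EV libraries each overlapped control_EV. The means were 9.57 ± 2.32 CPM in LPS_EV, 4.60 ± 1.20 CPM in TGFB_EV, 7.43 ± 2.21 CPM in IL10_EV and 4.96 ± 1.13 CPM in control_EV (SD, n = 3 each). Without replicate 2 the IL10_EV mean was 4.49 CPM for the row labelled Clec4e and 6.20 CPM for the row labelled Vmn2r19 (n = 2). In order of their means over all libraries, LPS_EV was followed by IL10_EV for both rows, with ranges that overlapped between these groups, and TGFB_EV and control_EV were lowest with ranges that overlapped too.

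**Figure D2:**
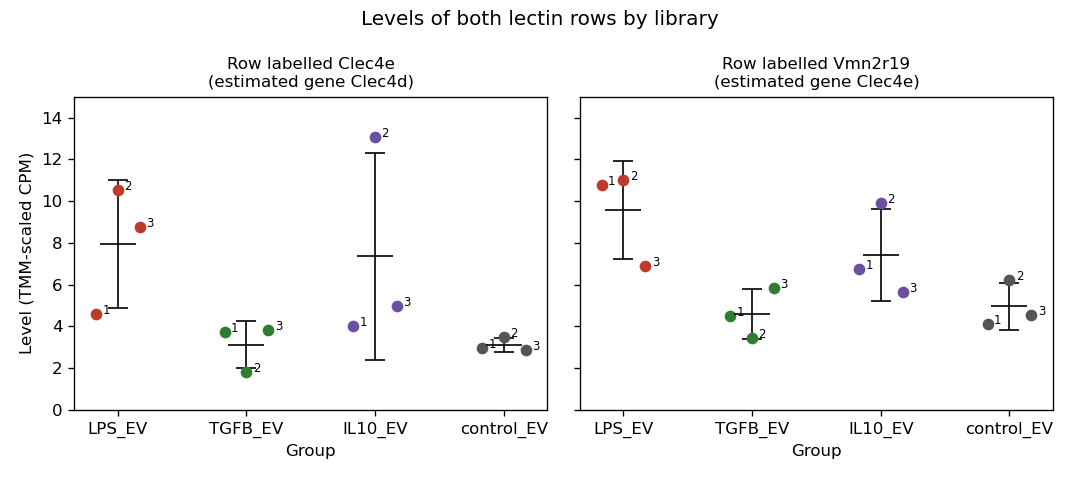
TMM-scaled CPM of both rows in each of the 12 libraries (points, numbered by replicate), with group mean and SD (bars, n = 3). LPS_EV points lie above control_EV points in both panels, and IL10_EV replicate 2 is the highest IL10_EV library in both.

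Against control_EV, the fitted level in LPS_EV was higher by 1.35 on the log2 scale for the row labelled Clec4e (SE 0.27, 95% interval 0.79 to 1.91, 2.55-fold) and by 0.95 for the row labelled Vmn2r19 (SE 0.22, interval 0.49 to 1.40, 1.93-fold). Of the 10523 rows tested, 0.817% were called in either direction at an adjusted p under 0.05 (edgeR quasi-likelihood test, Benjamini-Hochberg), made up of 0.542% called higher and 0.276% called lower. Both rows were chosen on this contrast, so their place among the called rows carries no weight. A larger log2 fold change was found in 0.399% of the rows for the first and in 1.25% for the second. Without LPS_EV replicate 2 the differences were 1.10 and 0.83.

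Vesicles of TGF-β-treated donors gave no called difference in either row. The row labelled Clec4e differed from control_EV by 0.01 on the log2 scale in TGFB_EV (SE 0.33, 95% interval -0.69 to 0.70, edgeR adjusted p = 0.9985), and the row labelled Vmn2r19 by -0.11 (SE 0.26, interval -0.67 to 0.45, edgeR adjusted p = 0.9662). In that comparison 0.038% of 10524 rows were called. These intervals do not show that the groups were equal. Without TGFB_EV replicate 3 the differences were -0.17 and -0.32, and neither row was called.

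Vesicles of IL-10-treated donors gave higher means of both rows, but neither passed the adjusted threshold. The row labelled Clec4e was 1.23 higher in IL10_EV than in control_EV on the log2 scale (SE 0.40, 95% interval 0.34 to 2.12, edgeR unadjusted p = 0.01069, adjusted p = 0.9996), with 3 of 3 libraries above all control_EV libraries. The row labelled Vmn2r19 was 0.58 higher (SE 0.26, interval 0.01 to 1.14, edgeR unadjusted p = 0.04676, adjusted p = 0.9996). In that comparison 0% of 10613 rows were called by edgeR, 334 reached an unadjusted p below 0.05, and 1 was called by DESeq2. Without IL10_EV replicate 2 the differences were 0.53 and 0.32 (edgeR adjusted p = 0.74 and 0.8152). With no low-count filter the row labelled Clec4e passed (1.23, edgeR adjusted p = 0.007415), and the cause was not tested.

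The donor treatments were also compared with each other in a fit of all 12 libraries. TGFB_EV differed from IL10_EV by -1.22 on the log2 scale for the row labelled Clec4e (SE 0.41, 95% interval -2.08 to -0.36, edgeR unadjusted p = 0.008014, adjusted p = 0.6226). The difference was -0.68 for the row labelled Vmn2r19 (SE 0.26, interval -1.24 to -0.13, edgeR unadjusted p = 0.01895, adjusted p = 0.6226). Of 11267 rows 0% were called by edgeR, 842 reached an unadjusted p below 0.05, and 15 were called by DESeq2. Without IL10_EV replicate 2 the differences were -0.52 and -0.43, and with no low-count filter the row labelled Clec4e passed (-1.23, edgeR adjusted p = 0.0006784). As a description, LPS_EV was above TGFB_EV by 1.34 (SE 0.41) and 1.05 (SE 0.26), and it differed from IL10_EV by 0.12 (SE 0.38) and 0.37 (SE 0.25). The sign of the 0.12 turned without LPS_EV replicate 2 and without IL10_EV replicate 1 or 3. The comparisons with control_EV share its 3 libraries.

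**Figure D3:**
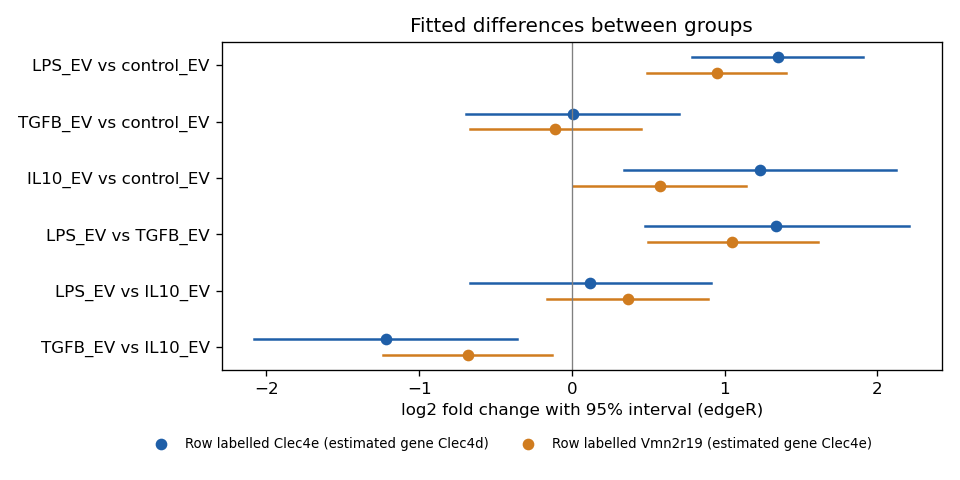
Fitted log2 fold changes of both rows in the 6 comparisons with 95% intervals (edgeR; the first-named group over the second). The comparisons with LPS_EV are descriptions, since the rows were chosen on its values, and the fitted differences of TGFB_EV from control_EV are 0.01 and -0.11.

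The 2 rows varied together across libraries. Their log2 CPM had Pearson's r of 0.81 and Spearman's rho of 0.83 over the 12 libraries, which share the groups the rows were chosen on, and r was 0.66 without LPS_EV replicate 2 and IL10_EV replicate 2. After removal of the group means r was 0.54. Of 7498 rows of at least 5 CPM, the row labelled Vmn2r19 took place 118 by likeness to the row labelled Clec4e, so 117 rows were more like it. The share of their joint counts in the row labelled Clec4e was 29.8% in LPS_EV replicate 1 (Wilson 95% interval 23.4% to 37.1%). In LPS_EV it was 48.8% in replicate 2 (42.64% to 54.98%) and 56% in replicate 3 (48.59% to 63.15%). It was 56.9% in IL10_EV replicate 2 (51.2% to 62.4%), against 36.0% to 41.9% in the control_EV libraries. The share in LPS_EV replicate 1 thus differed from that in replicates 2 and 3 by more than counting error. In LPS_EV replicates 2 and 3, which of the rows was higher lay within counting error. Intervals cover counting error only.

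Since both rows moved together, the sequence before each gene's start is shown from RefSeq (GRCm38.p6), 250 bases before and 50 after the start, at chr6:123261857-123262156 on the + strand for Clec4d and chr6:123289822-123290121 on the - strand for Clec4e. Capitals mark matches to the motifs searched on both strands. These were the PU.1 core GAGGAA, the C/EBP motif TTGCNNAA, the box TATAAA near transcription starts, the AP-1 motif TGANTCA and a fixed NF-κB sequence. The NF-κB sequence had no variable letter, so other forms of its motif were not searched. No motif letters overlap another motif's in these windows.

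Clec4d promoter: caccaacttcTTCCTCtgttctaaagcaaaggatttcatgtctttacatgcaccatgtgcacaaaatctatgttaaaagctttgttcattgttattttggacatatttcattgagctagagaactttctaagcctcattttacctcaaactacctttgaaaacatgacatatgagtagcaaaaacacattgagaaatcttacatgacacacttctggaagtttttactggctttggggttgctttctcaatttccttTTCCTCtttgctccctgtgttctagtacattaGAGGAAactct
Clec4e promoter: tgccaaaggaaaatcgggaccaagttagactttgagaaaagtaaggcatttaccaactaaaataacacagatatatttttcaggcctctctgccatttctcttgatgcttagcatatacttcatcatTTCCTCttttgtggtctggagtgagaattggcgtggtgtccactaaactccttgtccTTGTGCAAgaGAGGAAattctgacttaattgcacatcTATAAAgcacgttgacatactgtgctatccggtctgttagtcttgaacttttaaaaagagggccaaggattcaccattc

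The PU.1 core, named for a myeloid transcription factor, was found 3 times before or just after the start of Clec4d and 2 times before that of Clec4e, and 28.3% of 32851 promoters of this length hold it. The Clec4e window also held the C/EBP letters 66 bases before the start, found in 10.8% of promoters, and TATAAA 29 bases before it, found in 13.6%. AP-1 letters, in 7.81% of promoters, and the letters of the fixed NF-κB sequence, in 0.155%, were in neither window. Whether the windows hold other forms of the NF-κB motif was not tested. A match describes letters and is not evidence of binding.

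The rows whose log2 CPM followed each lectin row most closely were looked up among 7497 rows. For the row labelled Clec4e these were the rows labelled Gm13171, Ddx54, Mllt1, Gm266 and Slc7a11, with r between 0.94 and 0.96. At their estimated displacement the row labelled Ddx54 met Oas3, an antiviral oligoadenylate synthetase, over 1136 bases, and the row labelled Gm266 met Tnfaip2 over 927 bases. The row labelled Mllt1 met C3, the central complement component, over 119 bases and had 475 CPM in LPS_EV, 294.5 CPM in TGFB_EV, 403.6 CPM in IL10_EV and 330.4 CPM in control_EV on average. The row labelled Gm13171 met 16 bases of Nadk and the row labelled Slc7a11 no protein-coding exon. For the row labelled Vmn2r19 the most alike were the rows labelled Gm42462, Ifi27, Tmem38b and Man1a2 and the row ENSMUSG00000120486, with r between 0.89 and 0.91. The row labelled Gm42462 met Cd38, an NAD-consuming surface enzyme, over 1292 bases and averaged 21.4 CPM in LPS_EV, 14.9 CPM in TGFB_EV, 19.9 CPM in IL10_EV and 16.3 CPM in control_EV. The row labelled Ifi27 met Otub2, that labelled Man1a2 met Tent5c and Man1a2, and the others had no supported gene. These likenesses carry no p, and which rows were named depended on the measure, since Spearman's rho shared 2 and 1 of the 5 names. Without the 2 libraries farthest from the row's median, 3 of the 5 names were kept for the row labelled Clec4e (without LPS_EV replicate 2 and IL10_EV replicate 2) and 0 of 5 for the row labelled Vmn2r19 (without LPS_EV replicates 1 and 2).

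**Figure D4:**
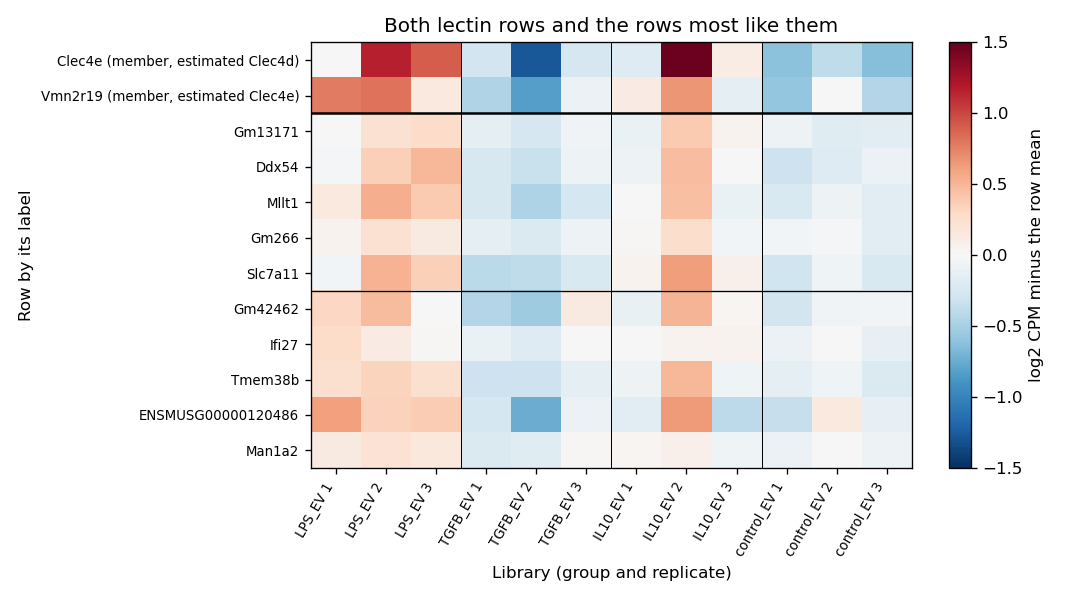
Log2 CPM minus the row's mean over 12 libraries, for both lectin rows (top) and the 5 rows most like each (below), with libraries by group and replicate. IL10_EV replicate 2 and the LPS_EV libraries are above the mean in most rows, and TGFB_EV replicate 2 is below it.

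Of the 20 genes of the signalling route of the receptors, 13 had a matched row and 11 were tested. These include both lectin rows, whose values were given above, and of the other 9 none was called against control_EV in LPS_EV, TGFB_EV or IL10_EV. The row matched to Fcer1g, the FcRγ chain, had 1944 CPM in LPS_EV and 1959 CPM in control_EV (log2 difference -0.01, SE 0.05). The row matched to Card9, the adaptor, had 746.5 CPM in LPS_EV and 801.2 CPM in control_EV (-0.10, SE 0.05), and that matched to Malt1, its protease partner, 13.56 and 11.96 CPM in the same order (0.18, SE 0.16). The rows matched to Fcer1g and Card9 shared the most bases with another gene, so their levels need not be those of Fcer1g and Card9. When the listed gene had to share the most bases, 7 of the 9 rows were left and none was called against control_EV. The rows matched to the kinase Lyn, the exchange factor Vav1, the phosphatase Inpp5d, the phospholipase Plcg2 and the NF-κB subunits Nfkb1 and Relb lay between 78.6 and 544.8 CPM in group means and differed by at most 0.13 log2 from control_EV in any group. The median log2 difference of the 9 rows was -0.01 in LPS_EV, -0.04 in TGFB_EV and 0.06 in IL10_EV, against 0.00 over all rows tested in each. Over the 11 rows, both lectin rows included, the median in IL10_EV was 0.07, and it was -0.01 without IL10_EV replicate 2. The row matched to Ptpn6, a phosphatase gene of myeloid cells, was under 1 CPM, so a match alone does not show that a row carries the gene's reads.

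The list of other C-type lectin genes holds 31 names, of which Clec4k and Cd207 name the same gene. It was chosen with earlier results of these data known, so the number called is a description. Of these names 21 had a matched row, and 10 rows were tested in LPS_EV. None was called higher and 1 was called lower, against 0.276% of all rows, namely the row labelled Rnasek, matched to the macrophage lectin gene Mgl2 over 114 bases, with 29.9 CPM in LPS_EV and 58.0 CPM in control_EV (log2 -0.96, SE 0.16, edgeR adjusted p = 0.001717). Its call was lost in the fit of all 12 libraries (edgeR adjusted p = 0.5195), with DESeq2 and without LPS_EV replicate 2, and the match itself was lost at 300 shared bases. The row matched to Colec12, a scavenger receptor with a lectin domain, had 2866 CPM in LPS_EV and 3261 CPM in control_EV (-0.18, SE 0.05, edgeR adjusted p = 0.07405). None was called in TGFB_EV or IL10_EV in the main fits. The median of the 11 rows tested in IL10_EV was -0.04, and it was -0.03 without IL10_EV replicate 2. In IL10_EV the row matched to Mgl2 differed by -0.97 (SE 0.18, edgeR adjusted p = 0.9996), and by -0.81 without IL10_EV replicate 2 (edgeR adjusted p = 0.06422). It was called there with DESeq2 (adjusted p = 0.0003707), with no low-count filter, with the replicate block and without IL10_EV replicate 1. In TGFB_EV it was called lower without TGFB_EV replicate 3 (-0.49, edgeR adjusted p = 0.02079).

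Of 19 genes listed for ligands and for products of receptor signalling, 13 had a matched row and 10 rows were tested. This list too was chosen with earlier results of these data known, so the number called is a description and carries no weight. In LPS_EV 4 rows were called higher, against 0.542% of all rows, and none was called in the main fits of TGFB_EV or IL10_EV. They were matched to the acute-phase gene Saa3 (596.1 CPM in LPS_EV, 155.9 CPM in control_EV, log2 1.94, SE 0.23), to Nos2, the inducible nitric oxide synthase (27.9 and 14.4 CPM in that order, 0.96, SE 0.19), to the itaconate enzyme gene Acod1 (218.6 and 114.9 CPM, 0.93, SE 0.11) and to the cytokine gene Il1a (63.5 and 33.5 CPM, 0.92, SE 0.11), with edgeR adjusted p of 7.499e-05, 0.008578, 7.499e-05 and 8.659e-05. In the fit of all 12 libraries, which called 0 rows, none of the 4 passed (edgeR adjusted p = 0.4152, 0.7911, 0.6697 and 0.3317), and the Nos2 row was also not called with DESeq2 or without LPS_EV replicate 2 or 3 or control_EV replicate 3. In IL10_EV the same 4 rows differed from control_EV by 1.84, 0.82, 0.65 and 0.59 without being called. Without IL10_EV replicate 2 these differences were 1.08, -0.48, -0.20 and 0.31, so that the Nos2 and Acod1 rows turned in sign, and the Saa3 row was then called (edgeR adjusted p = 0.01248). With no low-count filter all 4 rows were called higher in IL10_EV, and with the replicate block the Saa3 row was (edgeR adjusted p = 0.002808). In TGFB_EV the Acod1 row was called lower without TGFB_EV replicate 3 (-0.80, edgeR adjusted p = 0.0008062). The Acod1 and Saa3 rows were also called lower there with no low-count filter (edgeR adjusted p = 2.222e-06 and 4.631e-08). The row matched to the gene symbol Sap130 differed by 0.21 in LPS_EV (SE 0.11, edgeR adjusted p = 0.5138). This symbol is not that of the gene for the SAP130 protein bound by Mincle, which was not looked up. The median of the 10 rows was 0.34 in LPS_EV, against 0.00 over all rows tested, and in IL10_EV it was 0.06 without replicate 2, against 0.175 with it. Any shared base made a match here; with only rows for which the listed gene was the one sharing the most bases, a rule added after the counts had been seen, the same number were called higher but of 6 tested, with a median of 0.93.

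**Figure D5:**
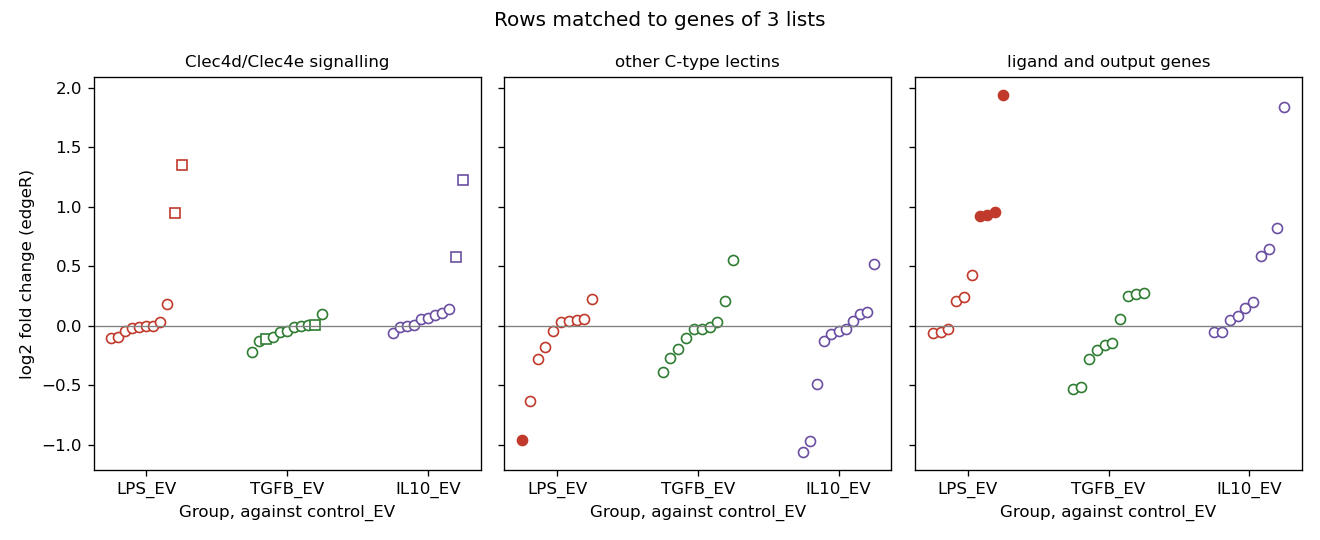
Log2 fold changes against control_EV (edgeR) of rows matched to 3 gene lists by any shared base; filled symbols passed an adjusted p under 0.05, and squares are the 2 lectin rows, not tested in LPS_EV. In LPS_EV 4 output rows and 1 other lectin row are filled, and the 9 other signalling rows lie between -0.10 and 0.18.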

How the data were processed

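RNA-seq of BV2 cells was deposited by the authors as whole-number counts per Ensembl gene row, not normalised, in 4 tables of which 2 were identical; 3 were used, with 12 libraries in 4 groups taken from the titles. Per the labels, cDNA was made with SMART-Seq v4 and libraries with Nextera XT after 18 PCR cycles, sequenced as paired reads of 150 nt. These kits do not mark strand, so overlapping genes on opposite strands cannot be told apart. DESeq2 is the tool named in the submitters' processing notes. The sources used here name no aligner, build or annotation.

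The test was edgeR's quasi-likelihood test (edgeR 4.0.16, R 4.3.3) after TMM scaling, on rows that passed filterByExpr at minimum count 10, with Benjamini-Hochberg adjustment over all of them. Comparisons with control_EV used their 6 libraries, the others all 12. DESeq2 1.42.0, other scalings and filters, a replicate block and leaving out each library were alternatives. Rows were displaced in steps of 100 bp up to 2000 kb. The score rewarded rows of at least 5 CPM on protein-coding exons and penalised them elsewhere, with neither where a row met its own exons. It also rewarded rows of at least 50 CPM on 643 widely expressed genes, with a penalty for rows under 120 counts on such genes. A supported displacement was found for 93.4% of the 50445 placed rows. Pearson's r of log2 CPM used a prior count of 2, and the 5 rows most like each lectin row were named, with the lists' signalling genes and called genes. The members, lists and named rows were chosen with earlier results of these data known. The match of list genes was tried under more than 1 rule: any shared base was used first and is the one reported, and the stricter rules were added after its counts had been seen. The values of single list rows under every setting, and levels and medians without IL10_EV replicate 2, were also added after seeing the data.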

Additional observations from a re-analysis of the deposited data

How the results depend on the processing

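Of 72 alternatives for the tested log2 fold changes of the 2 lectin rows, 63 kept direction and side of the threshold. Of 72 for the LPS_EV differences, which have no test, 68 kept their sign and moved by less than the replicate SD, as did 8 of 8 for the levels. With no low-count filter the row labelled Clec4e passed in IL10_EV against control_EV (1.225) and in TGFB_EV against IL10_EV (-1.227). Between TGFB_EV and control_EV the uncalled differences changed sign, from -0.172 to 0.28 for the row labelled Clec4e and from -0.322 to 0.09 for the row labelled Vmn2r19 when a library was left out. The difference of the row labelled Clec4e between LPS_EV and IL10_EV ran from -0.174 to 0.817 in the same way, lowest without IL10_EV replicate 1 and highest without IL10_EV replicate 2. With a library left out the row matched to Mgl2 ran from -0.49 to 0.01 and that matched to Nos2 from -0.99 to 0.11 in TGFB_EV, and in IL10_EV those matched to Nos2 and Acod1 ran from -0.48 to 1.21 and from -0.20 to 0.96. The causes were not tested.

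Counts of called rows moved more, with 40 of 72 within 1.5 times. For LPS_EV against control_EV (86) they were 165 with no low-count filter, 0 in the fit of 12 libraries and 18 to 127 when a library was left out (lowest without LPS_EV replicate 3, with 27 without LPS_EV replicate 2 and 53 without control_EV replicate 1). For TGFB_EV against control_EV (4) they were 22 with DESeq2, 111 with no filter, 0 in the fit of 12 and 0 to 419 with a library left out (highest without TGFB_EV replicate 3; 0 to 2 without any other). For IL10_EV against control_EV (0) they were 1, 22 and 0 to 2 with DESeq2, no filter and a library left out. For LPS_EV against TGFB_EV (0) they were 96, 340, 120 in the pair's 6 libraries and 0 to 134 with a library left out (highest without TGFB_EV replicate 3). For LPS_EV against IL10_EV (0) they were 1, 18 and 0 to 3, and for TGFB_EV against IL10_EV (0) 15, 160 and 0 to 1.

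Same-numbered replicates did not deviate together in every pair (correlations from -0.4359 to 0.2541), so the numbers were not taken to pair samples. With the replicate block 209 rows were called for LPS_EV against control_EV, 3 for IL10_EV against control_EV and 2 for LPS_EV against TGFB_EV, and no tested call of the lectin rows changed (-0.038 for the row labelled Clec4e in TGFB_EV against control_EV). In LPS_EV against control_EV each library correlated best with its own number, a hint from the data only.

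Moved 1000 bp further or less far, the row labelled Clec4e shared 55 or 287 bases with Clec4d, and moved 1000 bp further the row labelled Vmn2r19 shared 0 with Clec4e. The best displacements of 160 and 320 neighbouring rows, added after seeing the data, gave 201 and 0 bases of Clec4d and 298 and 716 of Clec4e. A requirement of 300 shared bases left 1 of 2 genes met and 0 other lectin rows lower in LPS_EV. The depth limits both rows to 21 to 169 counts per library.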
